A study of Mus musculus with 8 samples.

Results

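The neurexins, the neuroligins and the Lrrtm proteins are adhesion molecules that span the synaptic cleft, and 9 of their genes were followed here: Nrxn2 and Nrxn3, Nlgn1, Nlgn2 and Nlgn3, and Lrrtm1 to Lrrtm4. The genes were chosen by name, and all 9 of 9 were found among the 32285 genes of the count matrices. Nuclear RNA and open chromatin had been read from the same single nuclei of the striatum (10x Genomics Multiome assay) in 32 mice, 12 weeks of age, and the RNA counts are described below. The mice came from 8 inbred strains: the laboratory strains A/J, 129S1/SvImJ, NZO/HlLtJ, C57BL/6 and NOD/ShiLtJ, and, derived from wild mice, WSB/EiJ, PWK/PhJ and CAST/EiJ. All mice were untreated as far as the labels say, no strain served as a control, and both sexes were present in every batch; the sex of a mouse was not used. Nuclei were pooled in 4 batches, each with 1 mouse per strain, so that a strain was measured in 4 mice, and a mouse is named here by its strain and batch.

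As background, neurexins sit mainly in the presynaptic membrane and bind a set of postsynaptic partners, among them the neuroligins and the Lrrtm proteins. Nlgn1 protein is known mostly from excitatory synapses, Nlgn2 protein from inhibitory synapses, and Nlgn3 protein from both. The Lrrtm proteins are leucine-rich repeat proteins of excitatory synapses, and Lrrtm3 and Lrrtm4 proteins also bind heparan sulfate proteoglycans. The projection neurons of the striatum are inhibitory, carry either the dopamine receptor Drd1 or Drd2, and receive excitatory input from cortex and thalamus. Astrocytes and oligodendrocyte precursors are also known to make neuroligins and neurexins.

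The genes differ widely in size, and 3 of them lie inside other genes. On GRCm38.p6, Nrxn3 spans chr12:88722701-90334935 on the plus strand and Nlgn1 spans chr3:25421808-26332866 on the minus strand. Nlgn2 (chr11:69823123-69837784) and Nlgn3 (chrX:101299179-101321350) are short, and Nrxn2 lies at chr19:6418756-6533217. Lrrtm4 spans chr6:80018858-80810162. Lrrtm3 (chr10:63928497-64090255, minus strand) lies within Ctnna3, an alpha-catenin gene of the plus strand, and Lrrtm1 (chr6:77229210-77259915, plus strand) lies within Ctnna2, an alpha-catenin gene of the minus strand. Lrrtm2 is short and lies within Ctnna1. Whether the counting used strand is not given in the sources used here, so reads of Lrrtm1, Lrrtm2 and Lrrtm3 cannot be told apart with certainty from reads of these hosts, and the hosts' values are given beside them.

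The starts of these genes differed in base composition and in overlap with accessible chromatin. Of 32851 promoter windows in RefSeq (300 bases each, 250 before and 50 after a start), 53.12% overlapped at least 1 of the 291715 deposited peaks by 1 base or more. The starts described here are only those with a window. For Nrxn3 (from 88794504), Nlgn1 (26331909 and 26153986) and Lrrtm1 (77242477) they lie inside the gene. The gene's own first base (88722701, 26332866 and 77229210) had no window. The 250 bases before the first Nlgn1 start (26331910 to 26332159) are thus sequence within the gene. The starts of Lrrtm4 (80018877 and 80019643) also lie inside, but its first base (80018858) falls in its first window. All 3 windows of Nrxn3, the first of 2 windows of Nlgn1 and the window of Nlgn2 were overlapped. The windows of Lrrtm1 and Lrrtm3, both windows of Lrrtm4 and the second window of Nlgn1 were not. The 250 bases before the start are shown for Nlgn1, Lrrtm3 and Lrrtm4, for which PWK/PhJ was the highest or the lowest strain in both kinds of projection neuron, and for Nlgn2, for which no difference was called. Letters in capitals mark a GC box (GGGCGG) or a TATA box (TATAAA), searched on both strands together with an E box (CACGTG) and a cyclic AMP response element (TGACGTCA).
Nlgn1, first start, chr3:26331910-26332159, minus strand: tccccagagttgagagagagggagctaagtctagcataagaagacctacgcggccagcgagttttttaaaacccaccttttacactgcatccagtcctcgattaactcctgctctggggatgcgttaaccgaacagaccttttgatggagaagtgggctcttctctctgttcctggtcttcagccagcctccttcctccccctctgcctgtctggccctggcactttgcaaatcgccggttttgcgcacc
Nlgn2, chr11:69837785-69838034, minus strand: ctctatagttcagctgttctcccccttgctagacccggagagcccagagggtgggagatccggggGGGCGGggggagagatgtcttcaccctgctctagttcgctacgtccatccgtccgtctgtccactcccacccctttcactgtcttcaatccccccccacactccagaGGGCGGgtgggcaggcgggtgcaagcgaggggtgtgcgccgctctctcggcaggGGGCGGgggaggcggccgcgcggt
Lrrtm3, chr10:64090256-64090505, minus strand: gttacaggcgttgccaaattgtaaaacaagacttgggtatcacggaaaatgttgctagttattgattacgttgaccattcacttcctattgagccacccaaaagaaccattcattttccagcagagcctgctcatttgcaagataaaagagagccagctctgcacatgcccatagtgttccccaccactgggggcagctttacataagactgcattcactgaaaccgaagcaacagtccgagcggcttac
Lrrtm4, first start, chr6:80018627-80018876, plus strand: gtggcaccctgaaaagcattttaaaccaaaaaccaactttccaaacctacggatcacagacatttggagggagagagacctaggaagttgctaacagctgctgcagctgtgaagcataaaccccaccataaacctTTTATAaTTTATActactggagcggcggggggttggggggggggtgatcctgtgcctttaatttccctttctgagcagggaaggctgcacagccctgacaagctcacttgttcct

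The Nlgn2 window held 3 GC boxes and had a GC content of 67.6%, against a median of 52.4% over all windows. Of all windows, 32.74% held a GC box. The first Lrrtm4 window held 2 matches to the TATA box, read on the opposite strand as TTTATA, which 12.37% of windows held at least once. None of the 4 motifs was found in the Nlgn1 or the Lrrtm3 window, and the E box (6.021% of windows) and the cyclic AMP response element (1.546%) were found in none of those shown. These are letters of the C57BL/6J-based reference sequence from RefSeq and say nothing of the other strains' sequences. Within gene bodies, peaks were 20.42 per 100 kb in Nlgn1, 20.16 in Nrxn3, 24.11 in Lrrtm3 and 10.49 in Lrrtm4, where the median over 21631 protein-coding genes was 17.55.

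After the authors' filters, 55672 nuclei in 18 annotated clusters remained, 944 to 4416 per mouse, with a median of 4329 unique molecular identifiers (UMIs, counted RNA molecules) per nucleus. Batch 3 was the shallowest, with a median of 3232 UMIs per nucleus against 4593 to 4931 in the others. Of the barcode sequences, 1517 occurred in more than 1 batch (3048 nuclei), which were counted as separate nuclei of their own batch. Clusters carry the authors' names, and most lists of marker genes summed highest in a cluster of their name. The Drd1+ list (Drd1, Tac1, Pdyn, Isl1) was highest in the second Drd1+ cluster (812 CPM, counts per 1e+06 counts) and next in the first (604 CPM), and the lists for eccentric projection neurons and for neuroblasts, after which no cluster is named, were highest in the second Drd1+ cluster (1021 CPM) and in the cluster Unknown (1106 CPM). In batch 3, Nrxn3 and Nlgn1 of Drd1+ neurons were at their lowest in 7 of 8 strains each, and batch was a term of every test below.

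Levels were first compared across clusters within the same mice, as a description, because the clusters had been formed from these expression values. They are given in CPM of the counts of a mouse in a cluster, for clusters in which the mouse had at least 10 nuclei. Nuclear RNA of long genes is rich in introns, and whether introns were counted is not given in the sources used here, so levels are not compared between genes. Nrxn3 was counted in all neuron clusters, with 6410 ± 784 CPM (SD, n = 32 mice) in the Drd1+ and 7618 ± 852 CPM in the Drd2+ class of projection neurons. It was higher still in the second Drd1+ cluster (10029 ± 981 CPM) and in Nxph1+ interneurons (8494 ± 1334 CPM). The highest mean, 20067 ± 4775 CPM (n = 26), was in a cluster the authors left as Unknown, in which a list of neuroblast markers was also highest. Among clusters with at least 16 mice, oligodendrocytes (79.4 ± 28.9 CPM), macrophages (178 ± 236 CPM) and astrocytes (371 ± 189 CPM) were lowest. Fibroblasts and the cluster Unknown_2, with 2 mice each, were left out of this order, and 11.4% and 22.8% of their nuclei held a Nrxn3 UMI. Other non-neuronal clusters lay between: mural cells had 4238 ± 1676 CPM (n = 20), ependyma 3616 ± 1016 CPM (n = 12), endothelium 2814 ± 1370 CPM (n = 29) and Polydendrocyte/Oligodendrocyte 2198 ± 1237 CPM (n = 27). The summed level of 4 projection neuron markers (Ppp1r1b, Rgs9, Pde10a, Bcl11b) was 3350, 1744, 1687 and 1355 CPM in these clusters, against 4418 CPM in Drd1+ neurons and 319 CPM in oligodendrocytes, and the part of neuronal RNA in their levels of any member was not tested. The share of nuclei with a Nrxn3 UMI was 11.5% in oligodendrocytes and 11.4% in macrophages, with median depths of 1640 and 1432 UMIs. In nuclei thinned to 1500 UMIs, the shares were 10.1% and 11.3%. Thinning of nuclei, here and below, left out those under 1500 UMIs (4719 of 12066 oligodendrocytes and 1482 of 2638 macrophages). The level in oligodendrocytes is not read as expression.

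Nrxn2 had another pattern, with its lowest means over clusters with at least 16 mice in macrophages and the main Drd1+ cluster. Its mean was 203 ± 33.9 CPM in astrocytes and 230 ± 107 CPM (n = 27) in the cluster Polydendrocyte/Oligodendrocyte, against 47.0 ± 8.79 CPM in Drd1+ neurons. Nxph1+ interneurons (190 ± 46.6 CPM) and the cluster Unknown (207 ± 69.0 CPM, n = 26) were close to astrocytes, and macrophages had 32.3 ± 21.2 CPM. Drd2+ neurons had 92.9 ± 11.8 CPM and exceeded Drd1+ neurons in 32 of 32 mice, by 0.98 ± 0.23 (SD) on the log2 scale. Nrxn3 was also higher in Drd2+ than in Drd1+ neurons in 32 of 32 mice, by 0.25 ± 0.07 on the log2 scale. Neighbours in the order of Nrxn2, such as oligodendrocytes and Drd2+ neurons (higher in oligodendrocytes in 18 of 32 mice), did not differ beyond their spread.

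Nlgn1 was counted in most clusters and was highest in projection neurons, where the Drd1+ class had 5619 ± 615 CPM and the Drd2+ class 4830 ± 709 CPM. Drd1+ neurons were higher in 32 of 32 mice (log2 difference 0.23 ± 0.11). It reached 3826 ± 850 CPM (n = 27) in Polydendrocyte/Oligodendrocyte and 2266 ± 366 CPM in astrocytes, but 1289 ± 316 CPM in the second Drd1+ cluster. In astrocytes, 94.9% of nuclei held a Nlgn1 UMI (92.2% thinned), against 48.0% of oligodendrocytes (45.6% thinned) and 8.38% of macrophages (9.95% thinned). Nlgn2 and Nlgn3 were counted at low levels, between 48.8 and 49.4 CPM for Nlgn2 and between 38.5 and 39.5 CPM for Nlgn3 in the main projection neuron clusters. The highest mean of Nlgn3 over clusters with at least 16 mice was 83.4 ± 41.8 CPM in Polydendrocyte/Oligodendrocyte.

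Among the Lrrtm genes, Lrrtm4 was highest in the second Slc17a7+ cluster (4275 ± 1186 CPM, n = 16) and in Nxph1+ interneurons (3836 ± 1048 CPM). Projection neurons had 2475 ± 489 CPM (Drd1+) and 2750 ± 552 CPM (Drd2+), with Drd2+ higher in 32 of 32 mice. Slc17a7+ neurons (1041 ± 345 CPM, n = 20) lay below Polydendrocyte/Oligodendrocyte (1919 ± 531 CPM, n = 27) and mural cells (1415 ± 499 CPM, n = 20), whose projection neuron markers are given above. Medians over mice were 25.6 CPM in oligodendrocytes, 32.9 CPM in astrocytes and 25.6 CPM in macrophages, where a single mouse reached 683 CPM, and 3.46%, 3.65% and 4.15% of their nuclei held a Lrrtm4 UMI after thinning. Lrrtm3 stood at 857 ± 130 CPM (Drd1+) and 788 ± 93.4 CPM (Drd2+), with the former higher in 26 of 32 mice. Unlike Lrrtm4, Lrrtm3 was also counted in oligodendrocytes at 292 ± 52.4 CPM, in 31.4% of nuclei (29.5% thinned), whereas astrocytes (18.1 CPM, 3.83% of nuclei) and macrophages (22.0 CPM, 3.03%) were low. The host Ctnna3 stood at 1536 CPM in oligodendrocytes, above its 606 CPM in Drd1+ neurons. In the Drd1+ and Drd2+ classes, Lrrtm1 averaged 30.9 and 29.6 CPM and Lrrtm2 29.9 and 32.1 CPM, and Lrrtm2 had its highest mean over clusters with at least 16 mice in Slc17a7+ neurons (65.4 ± 25.7 CPM, n = 20).

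**Figure D1:**
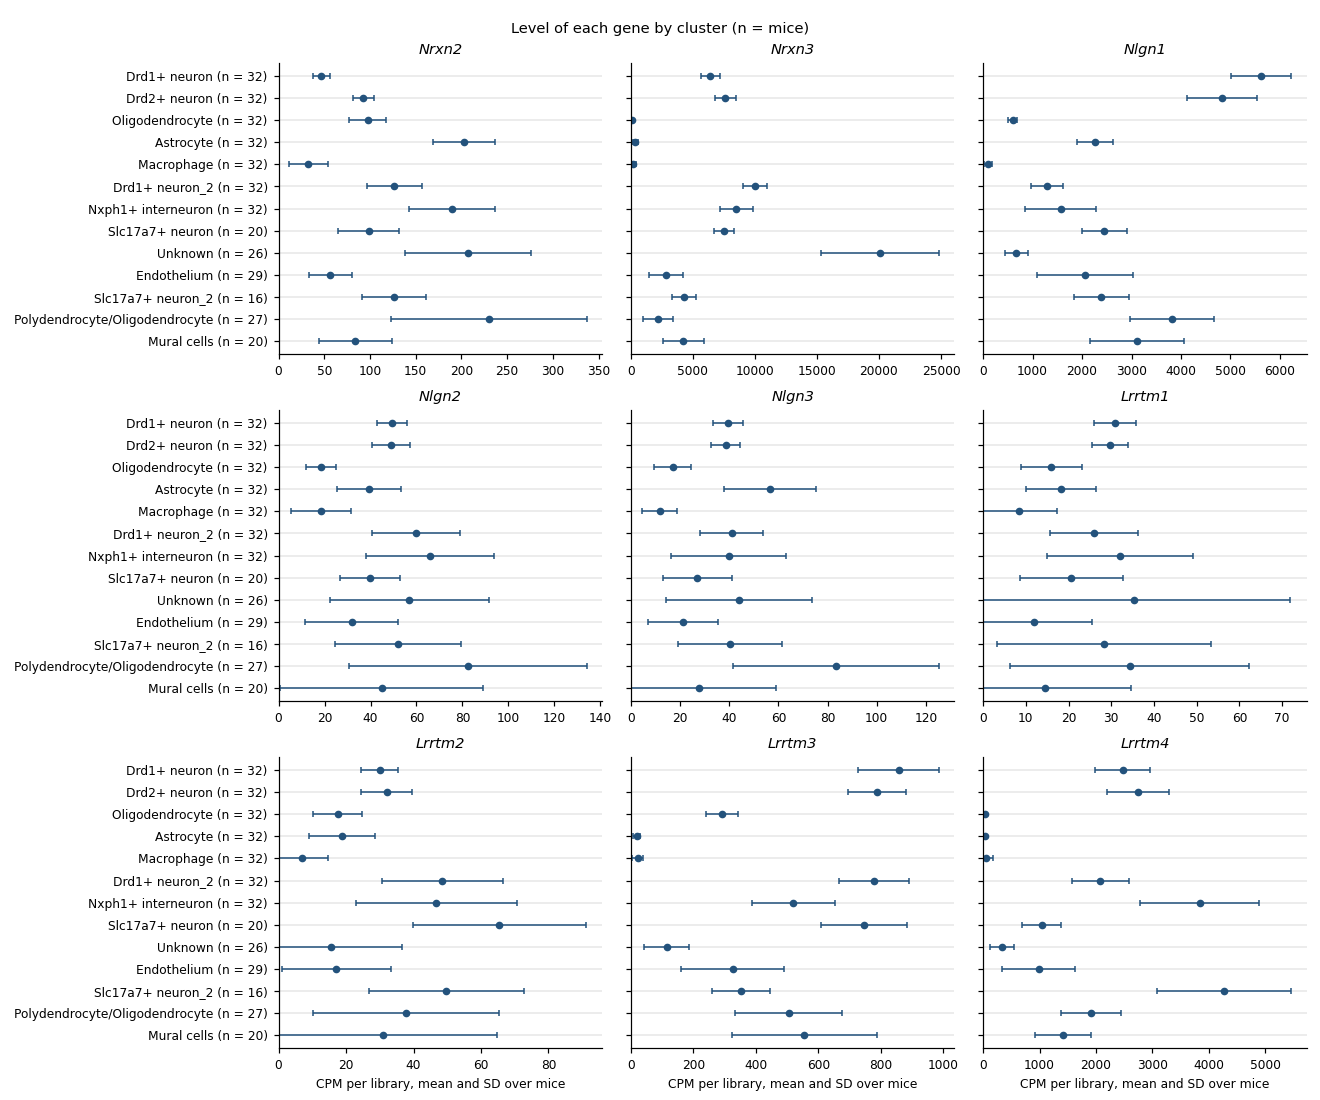
Level of each gene in CPM (x axis, linear, one panel per gene) in the clusters with at least 16 mice (y axis), as the mean over mice with SD bars that stop at 0. Nrxn3 and Lrrtm4 are near the axis in oligodendrocytes and astrocytes, but not in Polydendrocyte/Oligodendrocyte (2198 and 1919 CPM) or mural cells (4238 and 1415 CPM), while Nrxn2 is higher in astrocytes (203 CPM) than in Drd1+ neurons (47.0 CPM).

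Strains were then compared within clusters, one test per gene over all 8 strains (edgeR quasi-likelihood test of the strain term with batch as a block, Benjamini-Hochberg adjustment over all genes of the cluster, called at adjusted p under 0.05). In Drd1+ neurons 7 of 9 members differed between strains, where 61.7% of all genes tested did. In Drd2+ neurons 5 of 9 were called, where 55.9% of all genes were. These shares are near the background, and so is the spread: the median distance between the highest and the lowest strain mean was 0.56 on the log2 scale over the members in Drd1+ neurons (0.63 over all genes) and 0.48 in Drd2+ neurons (0.62 over all genes). What follows is therefore which strain was high or low, given in CPM over library totals scaled by the TMM method.

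**Figure D2:**
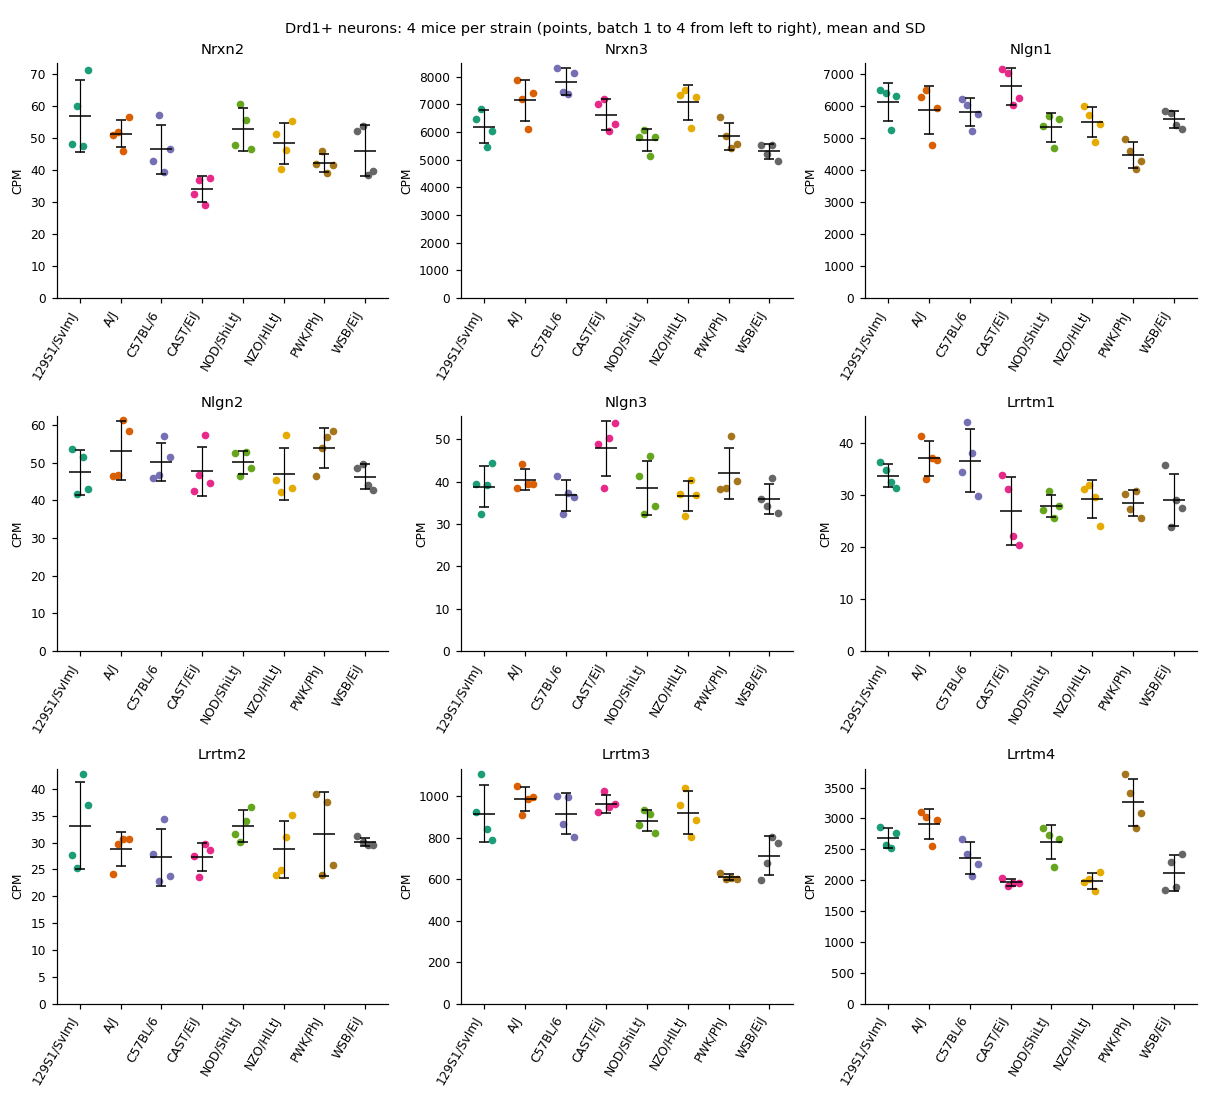
Level of each gene in Drd1+ neurons in CPM (y axis, one panel per gene, starting at 0) in the 8 strains (x axis), one point per mouse with the strain mean and SD. PWK/PhJ is lowest for Nlgn1 and Lrrtm3 and highest for Lrrtm4, and all 4 CAST/EiJ mice lie below the other 28 for Nrxn2.

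Nrxn3 was highest in C57BL/6 and lowest in WSB/EiJ in Drd1+ neurons. The 4 C57BL/6 mice of batches 1 to 4 had 8322.3, 7432.9, 7365.8 and 8140.6 CPM (mean 7815 ± 487, SD), and the 4 WSB/EiJ mice had 5531.9, 5198.9, 5514.8 and 4965.8 CPM (5303 ± 272). These groups did not overlap, and their means differed 1.47-fold (edgeR strain term, adjusted p = 1.1e-10). In Drd2+ neurons C57BL/6 was again highest, with 10120.6, 9241.9, 8541.5 and 9609.4 CPM, and 3 of these 4 mice exceeded all 28 others. NOD/ShiLtJ was lowest there (6705 ± 439 CPM, n = 4) and lay beside WSB/EiJ (6720 ± 538 CPM), from which it did not separate (edgeR strain term, adjusted p = 1.41e-09).

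Nrxn2 differed between strains in Drd1+ neurons (edgeR adjusted p = 7.99e-05), and there CAST/EiJ stood apart. Its 4 mice had 32.5, 36.9, 29.2 and 37.6 CPM (34.0 ± 3.95), all below the other 28 mice. The highest strain was 129S1/SvImJ with 48.2, 59.8, 47.5 and 71.2 CPM (56.7 ± 11.2), which overlapped with most others. In Drd2+ neurons the strain means ran from 85.6 to 106.1 CPM, and no difference was called (edgeR adjusted p = 0.239).

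Nlgn1 was lowest in PWK/PhJ and highest in CAST/EiJ in both kinds of projection neuron. In Drd1+ neurons PWK/PhJ had 4966.0, 4592.9, 4022.7 and 4280.0 CPM (4465 ± 407) and CAST/EiJ had 7157.9, 7038.4, 6015.6 and 6238.7 CPM (6613 ± 570), a 1.48-fold difference without overlap (edgeR strain term, adjusted p = 4.08e-10). Of the 4 PWK/PhJ mice, 3 lay below all 28 others. In Drd2+ neurons PWK/PhJ had 3971.1, 3348.8, 2974.1 and 2862.5 CPM (3289 ± 500) against 5493 ± 580 CPM in CAST/EiJ (edgeR adjusted p = 5.35e-13). The remaining 6 strains lay between 5331 and 6117 CPM in Drd1+ neurons, and neighbours among them overlapped.

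Nlgn2 was not called in Drd1+ (edgeR adjusted p = 0.400) or Drd2+ neurons (0.198), with strain means between 46.2 and 53.9 CPM in Drd1+ neurons. Nlgn3, an X-linked gene, was highest in CAST/EiJ in Drd1+ neurons, with 48.8, 38.5, 50.3 and 53.9 CPM (47.9 ± 6.60), and lowest in WSB/EiJ (35.9 ± 3.53). Its call there (edgeR adjusted p = 0.0200) was lost without batch 1 (0.0709) and without batch 4 (0.182), and it was not called in Drd2+ neurons (0.398).

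Lrrtm4 had the smallest adjusted p of the members in Drd1+ neurons (edgeR strain term, 3.49e-13). PWK/PhJ was highest with 3715.2, 3414.6, 2844.7 and 3089.7 CPM (3266 ± 380), and CAST/EiJ lowest with 2042.0, 1912.0, 1960.3 and 1954.4 CPM (1967 ± 54.3), a 1.66-fold difference without overlap. NZO/HlLtJ lay beside CAST/EiJ with 1966.5, 2013.4, 1821.5 and 2139.7 CPM, and these strains overlapped. The order was similar at both ends in Drd2+ neurons, with PWK/PhJ at 3677 ± 406 CPM and CAST/EiJ at 2081 ± 86.9 CPM (edgeR adjusted p = 5.89e-12). PWK/PhJ was thus the lowest strain for Nlgn1 and the highest for Lrrtm4, and CAST/EiJ the reverse, in both neuron classes.

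Lrrtm3 was low in PWK/PhJ and WSB/EiJ in Drd1+ neurons. PWK/PhJ had 631.2, 602.6, 603.3 and 599.9 CPM (609 ± 14.7), the tightest of its strain groups, and WSB/EiJ had 597.3, 677.5, 805.3 and 774.4 CPM (714 ± 94.8). The other 6 strains had means of 882 to 986 CPM, and A/J was highest with 1050.7, 911.0, 988.6 and 994.4 CPM (edgeR strain term, adjusted p = 8.08e-08). Next in the order above WSB/EiJ came NOD/ShiLtJ, and the ranges of these 2 strains did not overlap. In Drd2+ neurons the means ran from 643 ± 43.8 CPM (PWK/PhJ) up to 908 ± 55.5 CPM (CAST/EiJ; edgeR adjusted p = 0.00382). With every library thinned to 27325 counts, Lrrtm3 was not called in Drd1+ (0.453) or Drd2+ neurons (0.543).

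The host gene of Lrrtm3 moved with it. Ctnna3 in Drd1+ neurons was lowest in PWK/PhJ with 381.0, 403.1, 291.3 and 314.9 CPM (348 ± 53.0) and highest in CAST/EiJ (783 ± 99.7 CPM), with an edgeR adjusted p of 5.84e-13. Across the 32 mice, log2 levels of Lrrtm3 and Ctnna3 without batch means correlated at r = 0.93 in Drd1+ neurons, 0.88 in Drd2+ neurons and 0.79 in oligodendrocytes. After strain means were also removed, r was 0.89, 0.91 and 0.53. These are descriptions over libraries that share nuclei and depth, and how far counts of Ctnna3 enter those of Lrrtm3 was not tested. Lrrtm1 and its host Ctnna2 correlated less in Drd1+ neurons, at r = 0.65 without batch means and 0.19 without batch and strain means. Ctnna2 stood at 1408 ± 114 CPM in Drd1+ neurons and was highest in C57BL/6 and lowest in NOD/ShiLtJ (edgeR strain term, adjusted p = 2.04e-04). Ctnna1, the host of Lrrtm2, stood at 45.5 ± 12.4 CPM there, highest in C57BL/6 and lowest in CAST/EiJ (edgeR adjusted p = 1.58e-08), and correlated with Lrrtm2 at r = 0.27 in Drd1+ and 0.20 in Drd2+ neurons without batch means.

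**Figure D3:**
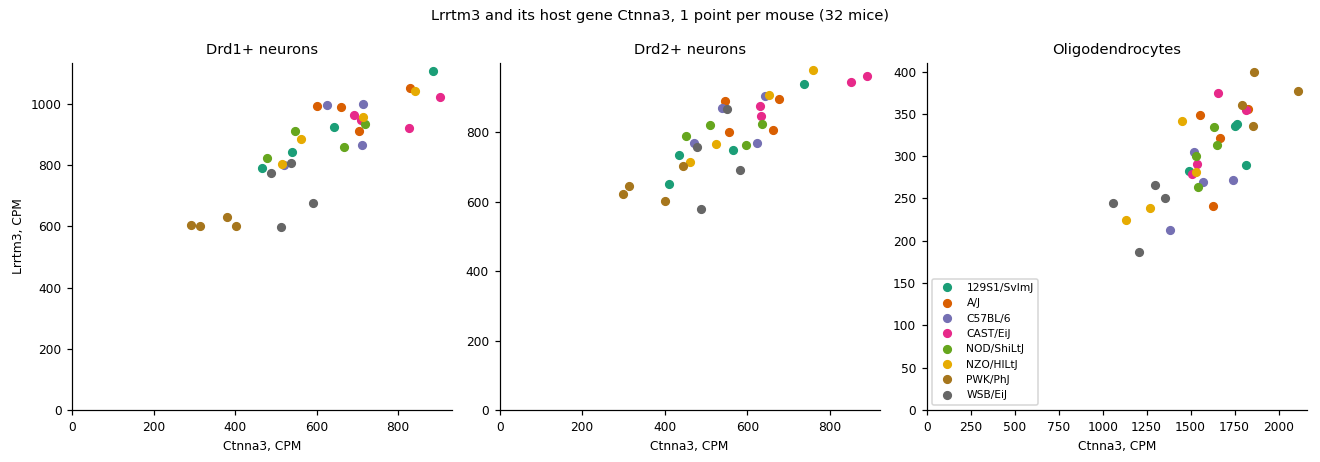
Lrrtm3 (y axis) against its host gene Ctnna3 (x axis), both in CPM on linear axes from 0, one point per mouse coloured by strain, in Drd1+ neurons, Drd2+ neurons and oligodendrocytes. PWK/PhJ is lowest for both genes in Drd1+ neurons (609 and 348 CPM) and highest for both in oligodendrocytes (368 and 1903 CPM).

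Lrrtm1 was called in Drd1+ neurons (edgeR adjusted p = 0.00385), from 37.1 ± 3.38 CPM in A/J to 26.9 ± 6.56 CPM in CAST/EiJ. The 4 CAST/EiJ mice had 33.8, 31.1, 22.2 and 20.4 CPM and overlapped with other strains, and without batch 3 the call was lost (0.0509). Lrrtm2 was not called in Drd1+ neurons (edgeR adjusted p = 0.351). In Drd2+ neurons Lrrtm2 was called (0.0168), highest in PWK/PhJ with 35.8, 36.1, 39.2 and 38.6 CPM and lowest in C57BL/6 with 27.5, 19.5, 29.2 and 30.6 CPM. That call was lost without batch 2 (0.164) and without batch 4 (0.0505), and Lrrtm2 was at its highest in batch 3 in 7 of 8 strains.

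Each strain was next contrasted with the mean of the other 7 in the same fit, which gives the size of its departure. In Drd1+ neurons, over the 8 contrasts, 24 member calls were made, of which 10 were kept in every refit without 1 of the 4 batches. In PWK/PhJ 4 of 9 members were called, where 34.3% of all genes were: Lrrtm4 was higher by 0.47 ± 0.05 (SE) on the log2 scale (adjusted p = 2.31e-10), Nlgn1 lower (-0.38 ± 0.04, 4.24e-10), Lrrtm3 lower (-0.55 ± 0.07, 4.75e-08), and Nrxn3 lower (-0.15 ± 0.05), a call lost without batch 4 (-0.13). In CAST/EiJ 5 of 9 were called (32.8% of all genes): Nrxn2 was lower (-0.52 ± 0.10, 2.91e-05), Lrrtm4 lower (-0.36 ± 0.05, 8.33e-07) and Nlgn1 higher (0.27 ± 0.04, 5.9e-07), while the calls of the higher Nlgn3 (0.31) and Lrrtm3 (0.20) were lost without batch 4 (0.24 and 0.18). In WSB/EiJ 3 of 9 were called (17% of all genes), all lower, and Nrxn3 (-0.31 ± 0.05, 1.63e-06) kept its call in every refit, whereas Lrrtm3 (-0.29) and Lrrtm4 (-0.24) lost it without batch 1 (-0.20 and -0.15).

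Each laboratory strain kept at most 1 of its member calls in every refit. In C57BL/6 2 members were called (13.9% of all genes), Nrxn3 at 0.33 ± 0.04 (adjusted p = 1.7e-07) with a call in every refit. In A/J 4 were called (17.2% of all genes), all higher, and Lrrtm4 (0.28 ± 0.05, 4.38e-05) kept its call in every refit. In NZO/HlLtJ 2 were called (19.7% of all genes), with Lrrtm4 lower (-0.35 ± 0.05, 4.18e-06) in every refit. The calls in 129S1/SvImJ (3 members, 12.3% of all genes) and in NOD/ShiLtJ (1 member, Nrxn3, 15.9% of all genes) were each lost in at least 1 refit. All p-values of contrasts are adjusted p from edgeR, and the median log2 difference over all genes was within 0.0103 of 0 in every contrast.

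In Drd2+ neurons 16 member calls were made over the 8 contrasts, and 9 were kept in every refit without 1 batch. PWK/PhJ had 4 (30.3% of all genes called), and Nlgn1 had the largest departure of the 9 members over the 8 contrasts there: -0.63 ± 0.05 (edgeR adjusted p = 1.18e-14). Lrrtm4 was higher in PWK/PhJ (0.49 ± 0.06) and Lrrtm3 lower (-0.34 ± 0.08), both in every refit. CAST/EiJ had 3 (28.1% of all genes), with Lrrtm4 lower (-0.44 ± 0.06) and Nlgn1 higher (0.21 ± 0.05) in every refit. WSB/EiJ had 2 (15.3%), with Nrxn3 lower (-0.21 ± 0.04) in every refit. C57BL/6 had 2 (11.1%), with Nrxn3 higher (0.34 ± 0.04) in every refit. NOD/ShiLtJ had 1 (12.1%), Nrxn3 lower (-0.21 ± 0.04), and NZO/HlLtJ had 1 (18.5%), Lrrtm4 lower (-0.29 ± 0.06), both in every refit. The 2 calls in 129S1/SvImJ (11.1% of all genes) and the 1 in A/J (15.2%) were lost in at least 1 refit.

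Whether the strain effect itself differed between Drd1+ and Drd2+ neurons was tested as an interaction, with the mouse as a block. Of 9 members 5 were called, where 4.84% of all genes were. In simulated counts this test recovered 50.8% of 2-fold changes. Nlgn2, Nlgn3, Lrrtm1 and Lrrtm2, which were not called, had low counts, as did Nrxn2, which was called. How far the 2 shares depend on the level of a gene was not tested. For Nlgn1 (edgeR interaction, adjusted p = 6.48e-11) the log2 ratio of Drd2+ over Drd1+ was -0.45 ± 0.11 (SD, n = 4) in PWK/PhJ and between -0.27 and -0.14 in the other 7 strains. For Lrrtm3 (1.75e-07) the ratio was 0.08 ± 0.07 in PWK/PhJ and 0.02 ± 0.07 in WSB/EiJ, but between -0.25 and -0.09 in the other 6. For Nrxn3 (5.54e-04) it ran from 0.17 in NZO/HlLtJ to 0.34 in WSB/EiJ. These 3 calls were kept in every refit without 1 batch, but 0 members were called without the replicate block (neither mouse nor batch in the model).

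**Figure D4:**
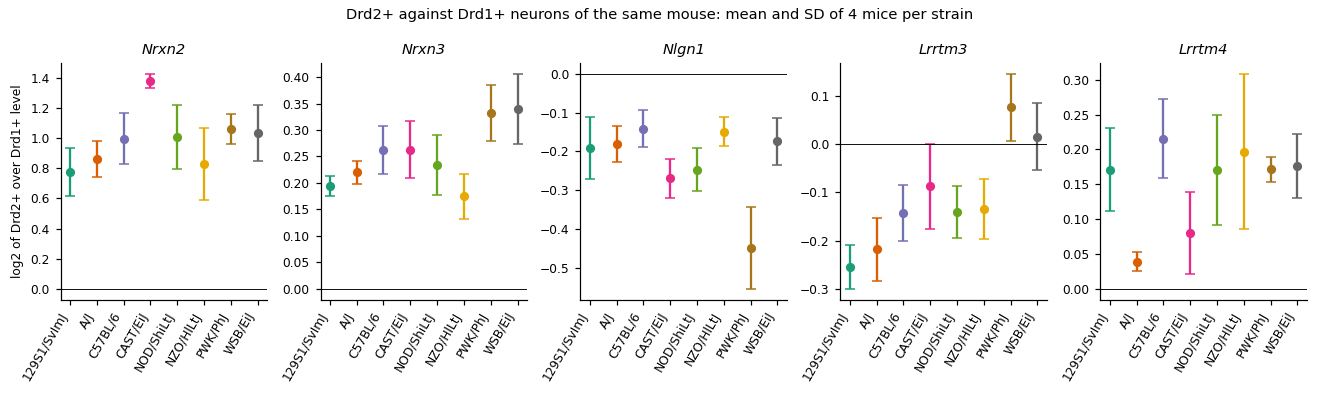
Log2 ratio of the level in Drd2+ neurons over that in Drd1+ neurons of the same mouse (y axis, 0 means equal) for the genes with a called interaction, by strain (x axis), as the mean and SD of 4 mice. Nlgn1 of PWK/PhJ (mean -0.45) lies below the other strains, and Nrxn2 of CAST/EiJ (mean 1.38) above them.

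Nrxn2 and Lrrtm4 had weaker interactions. The Nrxn2 ratio of Drd2+ over Drd1+ was 1.38 ± 0.05 in CAST/EiJ, the strain with low Nrxn2 in Drd1+ neurons, and 0.77 ± 0.16 in 129S1/SvImJ (edgeR adjusted p = 0.00719), and the call was lost without batch 1 (0.294) and without batch 4 (0.140). The Lrrtm4 ratio was 0.04 ± 0.01 in A/J and 0.08 ± 0.06 in CAST/EiJ against 0.17 to 0.22 in the other 6 strains (adjusted p = 0.0105), and this call was lost without batch 1 (0.0954) and without batch 3 (0.307). Ctnna3, the host of Lrrtm3, was called in the same test (adjusted p = 2.29e-04).

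The second Drd1+ cluster shared part of this picture. There 2 of 8 members tested were called, where 17.3% of all genes were. Nlgn1, not called there (edgeR adjusted p = 0.447), was called (0.0100) when nuclei below percentile 5 or above percentile 95 of UMIs in their cluster and batch were left out. Nrxn3 was again highest in C57BL/6, with 13111.4, 13329.7, 13322.8 and 13693.8 CPM, and lowest in WSB/EiJ, with 9786.5, 9400.6, 9729.1 and 9906.5 CPM (edgeR adjusted p = 4.53e-04). Lrrtm4 ran in another order than in the main projection neuron clusters: NOD/ShiLtJ was highest with 3327.3, 3457.3, 2891.6 and 3308.6 CPM, PWK/PhJ had 2157 ± 306 CPM, and NZO/HlLtJ was lowest with 1876.2, 1889.6, 1434.8 and 1602.1 CPM (edgeR adjusted p = 5.69e-12). Whether the order differs between these clusters was not tested. In Nxph1+ interneurons 1 of 6 members tested was called, where 1.53% of all genes were. That was Lrrtm4, from 6001 ± 1477 CPM in A/J to 3074 ± 447 CPM in CAST/EiJ (edgeR adjusted p = 0.0274), and the call was lost without batch 1 (0.352), batch 2 (0.0650), batch 3 (0.0918) or batch 4 (0.196).

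In oligodendrocytes 4 of 9 members differed between strains, where 34.8% of all genes did. For Lrrtm3, PWK/PhJ, the lowest strain in both kinds of projection neuron, was highest with 360.4, 399.4, 376.7 and 335.2 CPM, and WSB/EiJ, also low in Drd1+ neurons, was lowest with 244.6, 187.2, 250.8 and 266.3 CPM, without overlap (edgeR adjusted p = 1.46e-04). Ctnna3 had the same end points there (1903 and 1228 CPM, edgeR adjusted p = 1.18e-08). Nlgn1 was lowest in PWK/PhJ, as in the main Drd1+ and Drd2+ clusters, with 476.8, 510.6, 467.9 and 463.2 CPM, and highest in WSB/EiJ with 720.4, 701.5, 750.2 and 768.9 CPM (edgeR adjusted p = 3.41e-06). With libraries thinned to 27325 counts, neither Lrrtm3 (0.835) nor Nlgn1 (0.497) was called in oligodendrocytes. Nrxn2, from 82.1 CPM in NOD/ShiLtJ to 124 CPM in WSB/EiJ, lost its call (0.0139) without batch 4 (0.332). Nlgn3, from 9.59 CPM in 129S1/SvImJ to 27.7 CPM in CAST/EiJ, lost its call (0.0196) without batch 2 (0.104), batch 3 (0.180) or batch 4 (0.0933). The 4 projection neuron markers, all detected, summed to between 284 and 328 CPM in oligodendrocytes of the 8 strains.

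The strain effect on Lrrtm3 differed between Drd1+ neurons and oligodendrocytes, the only one of 9 members called in that interaction, where 17.4% of all genes were. The log2 ratio of oligodendrocytes over Drd1+ neurons was -0.72 ± 0.11 in PWK/PhJ and between -1.78 and -1.53 in the other strains (edgeR adjusted p = 3.02e-04, and at most 0.0200 in refits without 1 batch, chosen after seeing the data). Ctnna3 was called in the same interaction (2.24e-06).

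In astrocytes 2 of 8 members tested were called, where 21.5% of all genes were. Nrxn3 was highest in 129S1/SvImJ, with 768.5, 601.7, 901.6 and 876.7 CPM, and lowest in NOD/ShiLtJ, with 161.2, 121.8, 304.9 and 133.2 CPM (edgeR adjusted p = 2.38e-04). All 4 of the 129S1/SvImJ mice were above the mice of the next strain, NZO/HlLtJ. The summed projection neuron markers in astrocytes were 525 CPM in 129S1/SvImJ (272 to 974 over its mice), 515 CPM in NZO/HlLtJ, 388 CPM in NOD/ShiLtJ and 272 CPM in PWK/PhJ, and the part of neuronal RNA in the Nrxn3 level was not tested. Nlgn1 was highest in A/J, with 3096.9, 3006.4, 2259.3 and 3096.0 CPM, and lowest in C57BL/6, with 1921.9, 1675.1, 1492.8 and 2013.7 CPM (edgeR adjusted p = 7.24e-06), an order unlike that of projection neurons.

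**Figure D5:**
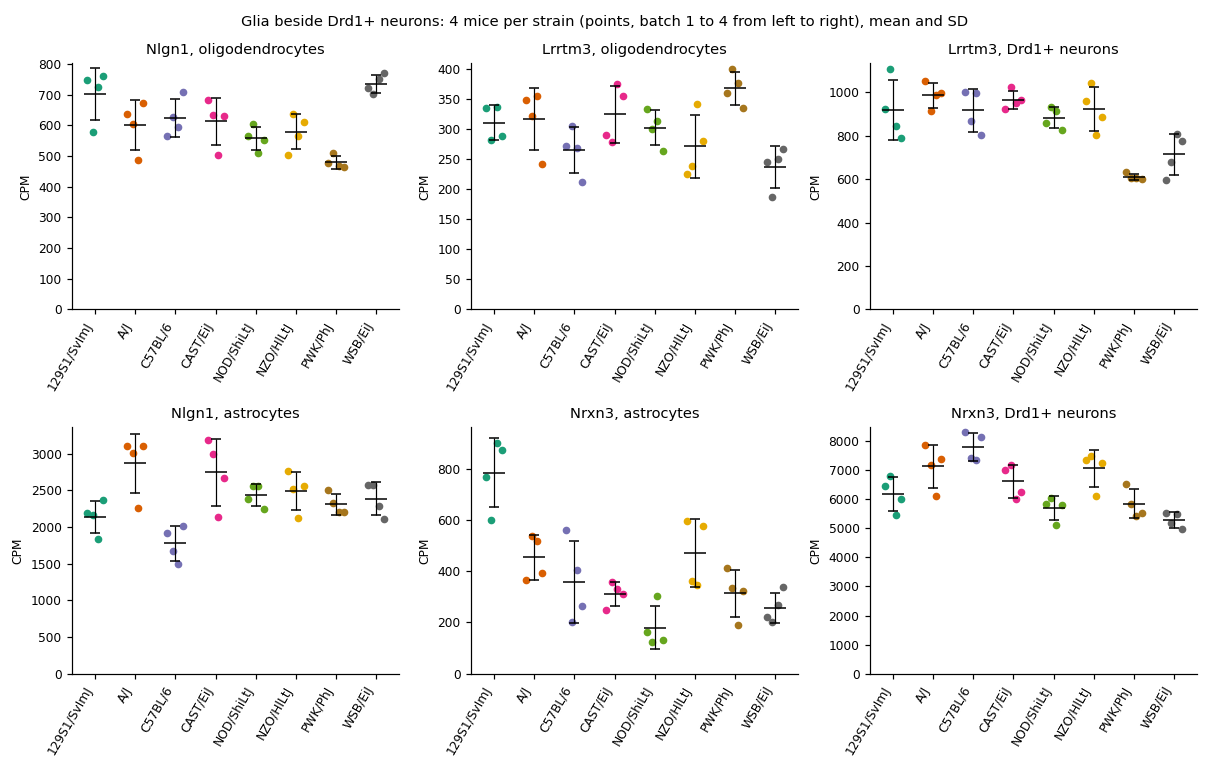
Level in CPM (y axis, starting at 0) of Nlgn1 and Lrrtm3 in oligodendrocytes and of Nlgn1 and Nrxn3 in astrocytes, with Lrrtm3 and Nrxn3 in Drd1+ neurons beside them, by strain (x axis), one point per mouse with the strain mean and SD. PWK/PhJ is highest for Lrrtm3 and lowest for Nlgn1 in oligodendrocytes, and 129S1/SvImJ is highest for Nrxn3 in astrocytes.

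The interaction of strain with Drd1+ neurons and astrocytes was called for 4 of 9 members, where 12.5% of all genes were. For Nlgn1 the log2 ratio of astrocytes over Drd1+ neurons ran from -1.71 ± 0.15 in C57BL/6 to -0.95 ± 0.05 in PWK/PhJ (edgeR adjusted p = 0.00333), and for Nrxn3 from -5.03 ± 0.68 in NOD/ShiLtJ to -2.98 ± 0.39 in 129S1/SvImJ (1.69e-05). Lrrtm1 (0.0385) and Lrrtm4 (0.00402) were also called, but their levels in astrocytes were 18.2 and 30.9 CPM, and Ctnna2, the host of Lrrtm1, was called in the same interaction (4.00e-14). In refits without 1 batch, also chosen after seeing the data, Nrxn3 kept its call. Nlgn1 lost its call without batch 1 (0.107) and without batch 2 (0.155), and also with no replicate block (0.0645). Lrrtm4 lost its call without batch 2 (0.168), and Lrrtm1 without batch 1 (0.572), batch 3 (0.0857) or batch 4 (0.215). No member was called in macrophages (0 of 2 tested, none at an unadjusted p under 0.05, with 24.8% of all genes called). The same held in endothelium (0 of 5, none at an unadjusted p under 0.05, 3.23%). It also held in Polydendrocyte/Oligodendrocyte (0 of 5, 1 at an unadjusted p under 0.05, 1.24%), all by edgeR. In simulated counts with 2-fold changes, the strain test recovered 53.9%, 21.1% and 1.06% of the changed genes in these clusters. The counts of 0 are therefore not read as absence of strain effects.

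Of 61 listed genes of partners, related synaptic organizers and scaffolds, 40 of 51 tested (78.4%) differed between strains in Drd1+ neurons. In Drd2+ neurons 38 of 49 (77.6%) did. The shares over all genes were 61.7% and 55.9%. By role in Drd1+ neurons, these were 11 of 15 neurexin ligands, extracellular partners and organizers. They were also 2 of 2 heparan sulfate proteoglycans and 9 of 12 intracellular scaffolds. The others were 18 of 22 in a group of LAR-type receptor phosphatases, their ligands and the netrin-Gs with their Lrrc4-family partners. The list's median distance between the highest and lowest strain mean in Drd1+ neurons was 0.47 on the log2 scale, below the 0.63 of all genes. It was also below in Drd2+ neurons (0.58 against 0.62), the second Drd1+ cluster, Nxph1+ interneurons and Polydendrocyte/Oligodendrocyte. It was above in oligodendrocytes (0.73 against 0.67), astrocytes (0.80 against 0.79), macrophages (1.00 against 0.79) and endothelium (1.05 against 0.90). In oligodendrocytes 15 of 34 were called, where 34.8% of all genes were, in astrocytes 18 of 37 (21.5%), in the second Drd1+ cluster 13 of 40 (17.3%), in macrophages 4 of 18 (24.8%) and in Polydendrocyte/Oligodendrocyte 1 of 22 (1.24%). In Nxph1+ interneurons 0 of 36 were called by edgeR (4 at an unadjusted p under 0.05, and 1 called by DESeq2, where edgeR called 1.53% of all genes), and in endothelium 0 of 31 (3 at an unadjusted p under 0.05, and 0 by DESeq2, with 3.23% of all genes). Igsf21, an immunoglobulin-like protein that binds a neurexin, had 33.8 ± 3.97 CPM in C57BL/6 and 4.23 ± 1.51 CPM in WSB/EiJ in Drd1+ neurons (edgeR adjusted p = 1.39e-12). Clstn2, a calsyntenin, was highest in PWK/PhJ in Drd1+ (108 ± 34.5 CPM) and Drd2+ neurons (105 ± 7.56 CPM), against 29.4 ± 6.01 CPM in A/J and 14.1 ± 4.13 CPM in 129S1/SvImJ. Ntng1, a netrin-G that binds Lrrc4-family proteins, ran from 12.7 ± 5.06 CPM in NOD/ShiLtJ to 100.5 ± 33.5 CPM in NZO/HlLtJ in Drd1+ neurons (edgeR adjusted p = 5.75e-07). Of the others named in Drd1+ neurons, Lrfn2 differed 4.41-fold between its highest and lowest strain mean, Il1rapl2 3.24-fold, Il1rap 3.03-fold, Flrt2 2.01-fold and the syndecan Sdc2 2.00-fold. In Drd2+ neurons Igsf21 differed 8.22-fold between its highest and lowest strain mean, and Il1rapl2 6.22-fold. In astrocytes Slitrk5 averaged 74.4 ± 17.4 CPM over 129S1/SvImJ mice but 7.02 ± 5.44 CPM over PWK/PhJ mice, Mdga1, which binds neuroligins, averaged 54.1 ± 7.34 CPM in NOD/ShiLtJ and 5.73 ± 9.25 CPM in PWK/PhJ, and Flrt2 differed 3.74-fold. In oligodendrocytes C1ql3 averaged 25.4 ± 2.00 CPM in WSB/EiJ and 4.68 ± 5.27 CPM in CAST/EiJ, Ntng2 differed 3.07-fold, and Lrrc4c averaged 1230 ± 212 CPM in WSB/EiJ and 512 ± 74.5 CPM in PWK/PhJ.

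Genes with the most similar pattern over the 32 Drd1+ libraries, by Pearson's r of log2 levels without batch means among 13431 genes, are given for 5 members as a description. The libraries share strain and depth. For Lrrtm3 the nearest gene was its host Ctnna3 (r = 0.93). For Nlgn1 they were Cd302 (0.91), Il1rap (0.87) and Samd12 (0.86), of which Il1rap is on the partner list. For Nrxn3 they were Grm7 (0.89), a metabotropic glutamate receptor, Macf1 (0.86) and Celf2 (0.85). For Lrrtm4 the nearest was Fam214a (0.80), and for Nrxn2 Plxnd1 (0.79). Over the 18 clusters, the nearest genes of 4 members were Pkia for Nrxn3 (0.97), Zfp804a for Lrrtm4 (0.96), Csrnp3 for Lrrtm3 (0.94) and Adam23 for Nlgn1 (0.93).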

How the data were processed

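Per the labels' protocols, the authors assigned nuclei to strains by genotype, filtered them, removed doublets and annotated clusters; the deposited table gives these calls as categories (other), and they were used unchanged. The deposited matrices hold raw counts (UMIs) per gene and nucleus. Per the submitters' processing notes, bcl2fastq 2.20.0.422 and Cell Ranger ARC 2.0.0 were used with the build mm10 (GRCm38). All strains were counted against this same build, whose sequence is C57BL/6J-based. How far that enters the strain differences was not tested. Strand use, counting of introns and peak calling are not given in the sources used here. The strain called C57BL/6 here is C57BL/6NJ in the deposited table and C57BL/6J in the series' design.

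Counts were summed per mouse and cluster, with at least 10 nuclei required per library, and the 9 clusters in which every strain kept at least 3 mice were tested. Libraries held 1710451 to 9416806 counts in Drd1+ neurons, 165465 to 1883033 in oligodendrocytes and 38252 to 1085998 in astrocytes. edgeR 4.0.16 (R 4.3.3) was used with filterByExpr, TMM scaling and robust quasi-likelihood fits of strain and batch. The strain term has 7 degrees of freedom. Interactions had the mouse as a block. Levels across clusters are CPM over unscaled totals of all genes. Strain values are CPM over TMM-scaled totals of the genes that passed the filter in that cluster, with log2 values at a prior count of 2. These scales are not compared with each other. On TMM-scaled totals 5 member levels moved and 56 did not. Scripts were tested on simulated data, in which some genes were changed 2-fold. The strain test recovered 83.0% of these in Drd1+ neurons, 40.2% in Nxph1+ interneurons, 21.1% in endothelium and 1.06% in Polydendrocyte/Oligodendrocyte. Of its calls, 8% were false in oligodendrocytes and 9.09% in endothelium, against at most 4.63% in the other clusters. The interaction test of Drd1+ and Drd2+ neurons recovered 50.8%, and 7.34% of its calls were false. Batches are blocks per the labels. Deviations of Drd1+ libraries from strain means correlated at 0.123 on average within a batch (92.9% of pairs above 0). Between batches the value was -0.04, but removing strain means sets it below 0, so it is no contrast to the first. P-values of strain terms and contrasts rest on the spread between mice of a strain after batch, estimated over all strains together. Those of interactions rest on the spread of the difference between clusters within a mouse. Shares of nuclei are pooled over mice and given with no test. Alternatives were DESeq2 1.42.0, its size factors, no expression filter, no robust estimation, no replicate block, at least 25 nuclei, nuclei outside percentiles 5 to 95 of UMIs of their cluster and batch left out, thinned libraries and each batch left out.

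Partners named in the text are those with the widest range of strain means among called genes of at least 10 CPM: 8 in Drd1+ neurons and 3 in each of Drd2+ neurons, oligodendrocytes and astrocytes. The members and lists were chosen with earlier results of these data known. Promoters and positions are from RefSeq (GRCm38.p6), which held no promoter entry used here for Nrxn2, Nlgn3 and Lrrtm2.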

Additional observations from a re-analysis of the deposited data

Results flagged for a closer look

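Of the strain effects compared between clusters, 10 differed by the interaction test (edgeR, adjusted p). Between Drd1+ and Drd2+ neurons these were Nrxn2 (0.00719), Nrxn3 (5.54e-04), Nlgn1 (6.48e-11), Lrrtm3 (1.75e-07) and Lrrtm4 (0.0105). Between Drd1+ neurons and oligodendrocytes it was Lrrtm3 (3.02e-04). Between Drd1+ neurons and astrocytes they were Nrxn3 (1.69e-05), Nlgn1 (0.00333), Lrrtm1 (0.0385) and Lrrtm4 (0.00402). The ratios behind them are given with the results above, except for Lrrtm1 and Lrrtm4 in astrocytes, for which only the levels are given. Printed ratios use values filtered and scaled within each cluster, whereas the interaction test filtered and scaled both clusters together.

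Of 144 groups of 4 mice (9 genes, 8 strains, Drd1+ and Drd2+ neurons), 5 held 1 mouse far from the other 3 by Dixon's 95% critical value, where chance marks about 1 in 20. In Drd1+ neurons they were Nlgn1 of the 129S1/SvImJ mouse of batch 3 (5244 CPM, low), Nlgn3 of the PWK/PhJ mouse of batch 3 (50.9 CPM, high), Lrrtm2 of the A/J mouse of batch 1 (24.1 CPM, low) and Lrrtm3 of the PWK/PhJ mouse of batch 1 (631 CPM, high within 599.9 to 631 CPM). In Drd2+ neurons it was Nlgn3 of the A/J mouse of batch 1 (36.0 CPM, low).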

How the results depend on the processing

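No call of a contrast changed direction under any alternative run. Strain term calls of members were 7 in Drd1+ neurons, 5 in Drd2+ neurons and 4 in oligodendrocytes. After thinning every library to 27325 counts they were 3, 3 and 0, and the thinned fit has fewer counts by construction. The number called over all genes also moved, in 5 clusters with thinning and in 4, 5, 1 and 2 clusters without batch 1, 2, 3 and 4. Falls in the members' counts are therefore not read as particular to them. The thinned fit tested 4 members in each kind of projection neuron and lost Lrrtm3 (edgeR adjusted p = 0.453 and 0.543). In oligodendrocytes it tested Nlgn1 (0.497) and Lrrtm3 (0.835). The members of lower counts did not pass its filter. Without 1 batch the oligodendrocyte count was 2 to 4. In Nxph1+ interneurons the single call became 2 with DESeq2 and 0 with at least 25 nuclei per library, and ranged from 0 to 0 without 1 batch. The count of 0 became 1 in macrophages without robust estimation (Nrxn3) and 1 in Polydendrocyte/Oligodendrocyte without the expression filter (Nrxn3); the cause was not tested. Leaving out nuclei of extreme UMIs gave 3 calls in place of 2 in the second Drd1+ cluster. With no expression filter, Nrxn3 was gained in oligodendrocytes (0.0460) and Nlgn3 lost in Drd1+ neurons (0.0589), and without batch 1 Lrrtm4 was gained in astrocytes (0.0336). With no replicate block, strain term calls were 6 in Drd1+ neurons, 4 in Drd2+ neurons and 3 in oligodendrocytes, contrast calls were 16 (24 with it) in Drd1+ and 10 (16 with it) in Drd2+ neurons, and the interaction of Drd1+ and Drd2+ neurons called 0 members in place of 5. Without 1 batch, contrast calls were 14 to 21 in Drd1+ and 10 to 14 in Drd2+ neurons, that interaction called 3 to 5 members, and the one of Drd1+ neurons and astrocytes 2 to 3 in place of 4; the cause was not tested. Thinning could be run for 5 clusters, and at least 25 nuclei left too few mice in endothelium and Polydendrocyte/Oligodendrocyte.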
